A study of Mus musculus with 8 samples.

Results

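The genes described here are 10 markers of neural stem cells (NSCs), namely Nes (nestin), the group B1 Sox genes Sox1, Sox2 and Sox3, Pax6, Msi1, Prom1, Fut4, Fabp7 and Vim. They were read through all probe sets of the array annotated with 1 of these symbols alone, which gave 23 of 45101 probe sets. There were 5 for Pax6, 3 each for Nes, Msi1 and Vim, 2 each for Sox1, Sox3 and Fut4, and 1 each for Sox2, Prom1 and Fabp7. Of the 23, 12 were bright enough to be tested, and they stand for 9 of the 10 genes, among 8975 genes with a tested probe set in all. The rule that picks the probe sets uses symbols and no signal, but the genes were proposed with earlier results of these data known.

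NSCs grown as secondary neurospheres, free-floating clusters of dividing precursor cells, were cultured in rcCHIL3 for 7 days, in MHM + GF for 7 days, in rcCHIL3 for 3 days or in MHM + GF for 3 days, and 2 arrays were made for each of these 4 groups, 8 in all. MHM is the medium hormone mix of the neurosphere culture, and MHM + GF is the control medium with the growth factors FGF-2 and EGF. rcCHIL3 is medium conditioned by HEK293T cells, a human kidney cell line, that were transfected with Chil3, and the labels call it RcECF-L, after an older name of the protein, and the control MHM. The sources name added growth factors for the control medium alone, and no group had conditioned medium without CHIL3. CHIL3, other contents of medium conditioned by HEK293T cells and a lack of added growth factors thus cannot be told apart in these groups. An effect of rcCHIL3 below means the difference between the 2 media. The labels describe cells from adult mouse brain, whereas the methods name embryonic or adult striatum, and age, sex and strain of the animals behind each array are not given in the labels. The 2 arrays of a group are independent experiments per the methods.

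Nestin is an intermediate filament protein that neural precursors make together with vimentin and lose when they mature, and its gene is read in neural precursors through an enhancer in the second intron. Sox2 and its relatives Sox1 and Sox3 are DNA-binding factors that hold neural precursors in an undifferentiated state, and Pax6 is a paired box factor of radial glia, the precursors of the embryonic brain. Fut4 encodes a fucosyltransferase that can make the Lewis X carbohydrate, the epitope called CD15, which is used with CD133 (the product of Prom1) to sort neural precursors. In the study the fluorescent protein Venus under the nestin enhancer and the CD15 epitope were followed by flow cytometry in neurospheres of transgenic embryos, which counts positive cells, while an array measures the mRNA of a gene averaged over all cells of a culture. No cytometry value is in the files used here, so the comparison is limited to naming the mRNA that stands behind each of these readouts.

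Values are MAS5 signals, linear intensities of a probe set, after each array was rescaled to an average of 100. The deposited averages lay between 267.3 and 316.6 over the arrays, and on each array between 30.1% and 31.5% of probe sets reached a signal of 50, which had to be reached on at least 2 arrays for a probe set to be tested. Changes are given as log2 of signal + 20, rcCHIL3 over MHM + GF or 7 days over 3 days, with the standard error (SE) and a p adjusted over all 15679 tested probe sets from 1 limma model of 4 groups, and a change is called at an adjusted p under 0.05. Adding 20 understates the change of dim probe sets. Signals of different probe sets are not comparable with each other, since each set of probes binds with its own strength. The number of arrays, 2 a group, limits the precision of every value.

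The markers did not move together. At 7 days in rcCHIL3, of the 9 tested genes Sox3 was higher than in MHM + GF and Nes, Sox1 and Pax6 were lower, that is 1 higher and 3 lower, while over all genes 21.8% were higher and 22.6% were lower. At 3 days Pax6, Msi1 and Prom1 were higher (3 genes) and Nes, Sox2, Sox3 and Vim were lower (4 genes), against 30.3% higher and 22.1% lower over all genes. Without a filter 1 gene was higher and 3 lower at 7 days. At 3 days 2 were then higher and 3 lower, with Pax6 and Sox2 no longer called. Nes was under a signal of 50 on all rcCHIL3 arrays and passed the filter through MHM + GF at 3 days alone. The effect of rcCHIL3, that is the difference between the media, itself differed between the days for 7 of the 9 genes. It was larger (more positive) at 7 days than at 3 days for Nes, Sox3 and Vim (3 genes) and smaller for Sox1, Pax6, Msi1 and Prom1 (4 genes), whereas 19.2% of all genes were called in the first direction and 24.1% in the second. With so few genes these counts describe the 9 genes and call nothing particular to them as a list. The median log2 change of the 9 genes was -0.16 at 7 days and -0.09 at 3 days, against medians of -0.0055 and 0.04 over all genes. Over all probe sets, 48.5% of those called at 7 days and 55.1% of those called at 3 days were higher in rcCHIL3, against 47.7% and 52.7% after quantile normalization and 45.5% and 50.5% after centring on the median. On the signals as deposited these shares were 63.8% and 42.6%, and the median change shifted by 0.076 at 7 days and by -0.075 at 3 days. There the array averages were left unequal, with 311.5 and 294.8 in rcCHIL3 and 281.3 and 284.8 in MHM + GF at 7 days. At 3 days they were 297.4 and 267.3 in rcCHIL3 and 316.6 and 278.8 in MHM + GF. The same filter and offset also met larger signals, and 23340 probe sets were tested.

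**Figure D1:**
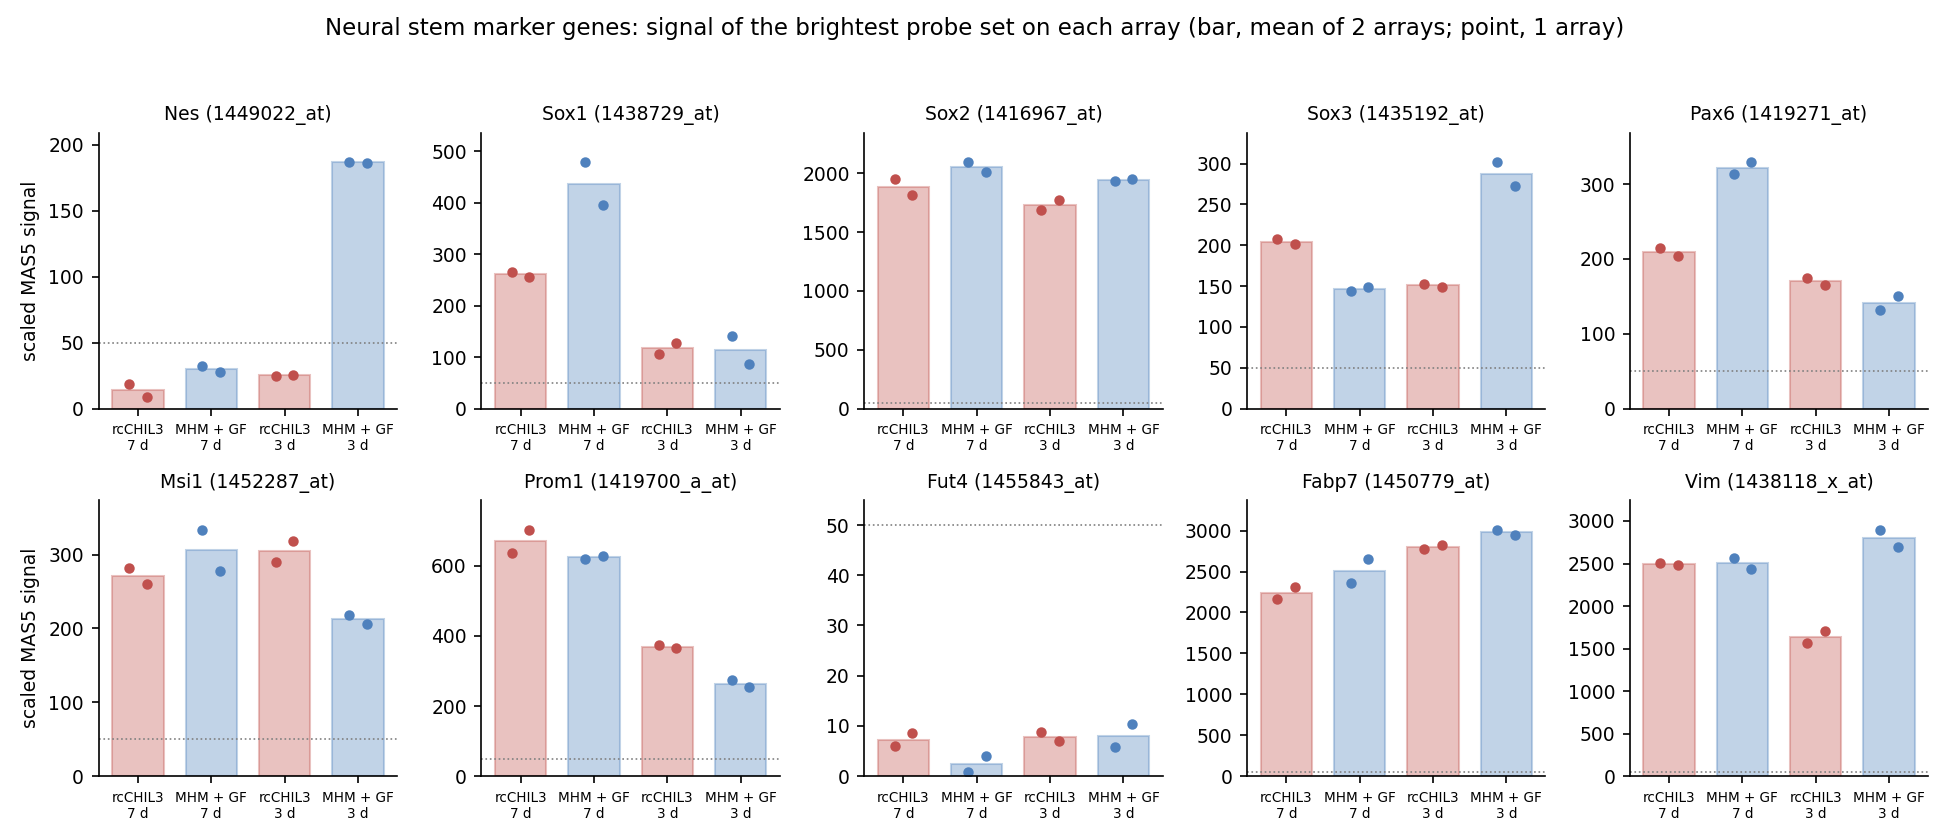
Scaled MAS5 signal (y axis, linear from 0, own scale for each gene) of the brightest probe set of each marker gene in rcCHIL3 and MHM + GF at 7 and 3 days. Bars are the mean of 2 arrays and points are single arrays; the dotted line is the signal of 50 used to select probe sets for the tests. Nes stood above that line in MHM + GF at 3 days, and Fut4 stayed below it on all 8 arrays.

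Nes was lower in rcCHIL3 at 3 days, by the largest change of the 9 tested genes between the media. At 7 days it was called lower with its brightest probe set alone, at signals under the filter in both media. With the brightest of its 3 probe sets, 1449022_at, the signal at 7 days was 18.9 and 8.69 on the rcCHIL3 arrays, against 32.2 and 27.7 on the MHM + GF arrays. At 3 days it was 24.9 and 25.5 in rcCHIL3, against 187 and 186 in MHM + GF. The groups did not overlap on either day, and MHM + GF at 3 days stood far above the other 3 groups. The log2 change was -0.58 at 7 days (SE 0.13, adjusted p = 0.00471) and -2.19 at 3 days (SE 0.13, adjusted p = 1.26e-07). Under the two-tailed test given in the methods the change at 7 days was not called (adjusted p = 0.251). No fold is given, since all signals but those of MHM + GF at 3 days were under the filter of 50. The rcCHIL3 signals of 8.69 to 25.5 were far under it, and the array medians, over all probe sets, were 13.3 to 15. The effect was 1.61 less negative at 7 days than at 3 days on the log2 scale (SE 0.19, adjusted p = 4.89e-05). In this bulk RNA fewer nestin-making cells and less Nes mRNA per cell cannot be told apart.

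The smaller difference at 7 days went with a lower level in the control medium. In MHM + GF the Nes signal averaged 29.9 ± 3.16 at 7 days and 187 ± 0.32 at 3 days (SD, n = 2 arrays each), a fall of 2.05 on the log2 scale (SE 0.13, adjusted p = 2.1e-07). In rcCHIL3 it averaged 13.8 ± 7.25 at 7 days and 25.2 ± 0.42 at 3 days, a log2 change of -0.43 (adjusted p = 0.0249). That change within rcCHIL3 lost its call when rcCHIL3 7 days replicate 2 was left out (-0.21, adjusted p = 0.218), and likewise for replicate 1 (-0.44, adjusted p = 0.0923) and replicate 2 (-0.43, adjusted p = 0.106) of rcCHIL3 at 3 days. Leaving out rcCHIL3 7 days replicate 1 gave -0.66, and the call was also lost without a filter (adjusted p = 0.0872) and with the mean of both tested probe sets (-0.27, adjusted p = 0.053). Without rcCHIL3 7 days replicate 2 the difference between the media at 7 days was -0.36 (adjusted p = 0.0428). In the order of the levels, MHM + GF at 7 days came next after MHM + GF at 3 days, and then rcCHIL3 at 3 days, whose arrays lay just under those of MHM + GF at 7 days.

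The Nes probe sets passed the filter only through MHM + GF at 3 days, and the arrays of the other 3 groups were all under a signal of 50, so a probe set of this pattern had to differ and its presence among the tested genes is no support for the difference. In a fit that kept dim probe sets too, 1449022_at had an adjusted p of 0.0255 at 7 days and of 1.17e-05 at 3 days. The second Nes probe set, 1418289_at, had signals of 21.9 and 21.0 in rcCHIL3 and 28.0 and 21.9 in MHM + GF at 7 days, and these nearly touched (log2 change -0.11, SE 0.11, adjusted p = 0.442). At 3 days it had 24.6 and 25.1 in rcCHIL3, against 87.4 and 107 in MHM + GF (log2 change -1.38, SE 0.11, adjusted p = 1.54e-06). The third, 1453997_a_at, stayed under the filter, with at most 18.1 on any array, and in the fit without a filter it was lower in rcCHIL3 at 3 days (-0.67, adjusted p = 0.00419). The fall of Nes at 3 days was thus seen with all 3 probe sets, and that at 7 days with 1 of them.

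The 5 genes whose pattern over the 8 arrays was most like that of Nes, out of 3495 genes averaging at least 200 over the arrays, were Cdk1 (Pearson's r = 0.994), Smc4 (0.993), Lbr (0.991), Rasa3 (0.991) and Ccnd1 (0.99). Cdk1 encodes the kinase that drives entry into mitosis, Smc4 a condensin subunit, Lbr a receptor of the nuclear lamina and Ccnd1 cyclin D1. Cdk1 had signals of 76.1 and 67.8 in rcCHIL3 and 108 and 113 in MHM + GF at 7 days, and of 117 and 102 in rcCHIL3 and 559 and 615 in MHM + GF at 3 days, the same order of group means as Nes, with overlapping arrays in the middle ones. The arrays share 4 groups, 1 of which stands far apart, so a high r over them needs little more than a high level in MHM + GF at 3 days. Of 16 genes of S phase, 12 were tested and all 12 were lower in rcCHIL3 on both days, with and without the filter, while over all genes 22.6% were lower at 7 days and 22.1% at 3 days. Of the 12, 3 (Mcm3, Gins1 and Gins2) were under a signal of 50 on all rcCHIL3 arrays and so passed the filter through MHM + GF alone, as Nes did. The summed signal of the list was 1728 to 1779 in rcCHIL3 and 3466 to 3505 in MHM + GF at 7 days, and 2088 to 2168 in rcCHIL3 and 5529 to 5594 in MHM + GF at 3 days. The 4 genes with the largest change on either day were Mcm5 (-2.03 at 7 days and -2.10 at 3 days), Rrm2 (-1.65 and -2.04), Mcm3 (-1.16 and -1.89) and Mcm7 (-1.78 and -1.38), which encode subunits of the replicative helicase and, for Rrm2, of ribonucleotide reductase. Their part in the Nes result was not tested.

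The sequences before the start sites of Nes and Vim are shown because these partners fell together at 3 days, and that of Sox1 because it moved otherwise. They were taken from RefSeq (GRCm38.p6), which had an entry for 8 of the 10 genes, and are the 250 bases before the annotated start, 5′ to 3′ on the strand of the gene. Capitals mark matches, on both strands, to the GC box with the letters GGGCGG, to the motif CCAAT and to the TATA box, searched as TATAAA.
Nes, chr3:87970843-87971092, + strand: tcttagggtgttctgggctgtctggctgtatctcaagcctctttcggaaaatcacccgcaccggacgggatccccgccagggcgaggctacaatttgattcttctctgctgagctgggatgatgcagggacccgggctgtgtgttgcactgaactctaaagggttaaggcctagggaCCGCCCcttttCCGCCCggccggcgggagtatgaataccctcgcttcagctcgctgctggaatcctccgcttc
Vim, chr2:13574061-13574310, + strand: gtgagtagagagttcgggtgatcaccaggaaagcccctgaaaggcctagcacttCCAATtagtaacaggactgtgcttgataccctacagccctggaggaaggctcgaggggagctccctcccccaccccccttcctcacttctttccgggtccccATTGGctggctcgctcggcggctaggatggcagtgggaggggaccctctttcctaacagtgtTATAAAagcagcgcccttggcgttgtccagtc
Sox1, chr8:12395269-12395518, + strand: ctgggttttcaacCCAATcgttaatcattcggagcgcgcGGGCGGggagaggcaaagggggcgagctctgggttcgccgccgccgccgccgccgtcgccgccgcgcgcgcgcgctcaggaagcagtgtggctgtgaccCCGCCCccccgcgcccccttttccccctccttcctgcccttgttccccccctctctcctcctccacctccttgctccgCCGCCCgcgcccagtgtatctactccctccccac
Nes had 2 GC boxes on the other strand, from 73 to 68 and from 62 to 57 bases before the start, and Vim had 2 CCAAT motifs and a TATA box 32 to 27 bases before the start. Sox1 had 3 GC boxes and a CCAAT motif, and 71.2% of its window was G or C, against 58.8% for Nes and 58.4% for Vim. Over all 32851 windows of this length, 32.7% held the GC box, 33.8% the CCAAT motif and 12.4% the TATA box. The Sox motif ACAATG (10.7% of windows) and the octamer ATGCAAAT (1.6%), searched in the same way, were not found in the windows of the marker genes, which says only that these letters are not in them. The intronic enhancer of Nes lies outside these windows and was not analysed here.

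Vim, which encodes vimentin, was lower in rcCHIL3 at 3 days with all 3 probe sets and close to MHM + GF at 7 days. Its brightest probe set, 1438118_x_at, had signals of 2505 and 2483 in rcCHIL3 and 2561 and 2441 in MHM + GF at 7 days, which overlapped. The signals at 3 days were 1560 and 1704 in rcCHIL3, against 2899 and 2699 in MHM + GF, without overlap. The log2 change was -0.0037 at 7 days (95% confidence interval -0.14 to 0.14, adjusted p = 0.969) and -0.77 at 3 days (SE 0.06, adjusted p = 1.6e-06). The other probe sets, 1450641_at and 1456292_a_at, gave -1.12 and -1.07 at 3 days and 0.04 and -0.01 at 7 days. Probes of a set with the suffix _x_at can also bind other transcripts, and those of the other sets moved further in the same direction.

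In rcCHIL3 Vim was higher at 7 days (2494 ± 15.3) than at 3 days (1632 ± 102; SD, n = 2 arrays each), a log2 change of 0.61 (adjusted p = 2.84e-05) that all 3 probe sets showed (0.61 to 0.73). In MHM + GF it averaged 2501 ± 84.6 at 7 days and 2799 ± 141 at 3 days, a log2 change of -0.16 (adjusted p = 0.0493). This last call was lost under 13 of 20 alternatives beside the test given in the methods, among them the removal of MHM + GF 3 days replicate 1 (-0.11, adjusted p = 0.278), of MHM + GF 7 days replicate 1 (-0.19, adjusted p = 0.0637) or replicate 2 (-0.13, adjusted p = 0.217), and of any rcCHIL3 array (adjusted p = 0.0523 to 0.0526). The other probe sets fell by 0.43 and 0.34. The rcCHIL3 effect on Vim was 0.77 higher at 7 days than at 3 days (SE 0.09, adjusted p = 5.15e-05). Deposited signals of Vim reached 9176, on MHM + GF 3 days replicate 1, whose array maximum was 11696.8. Whether the Vim probes were saturated was not tested.

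**Figure D2:**
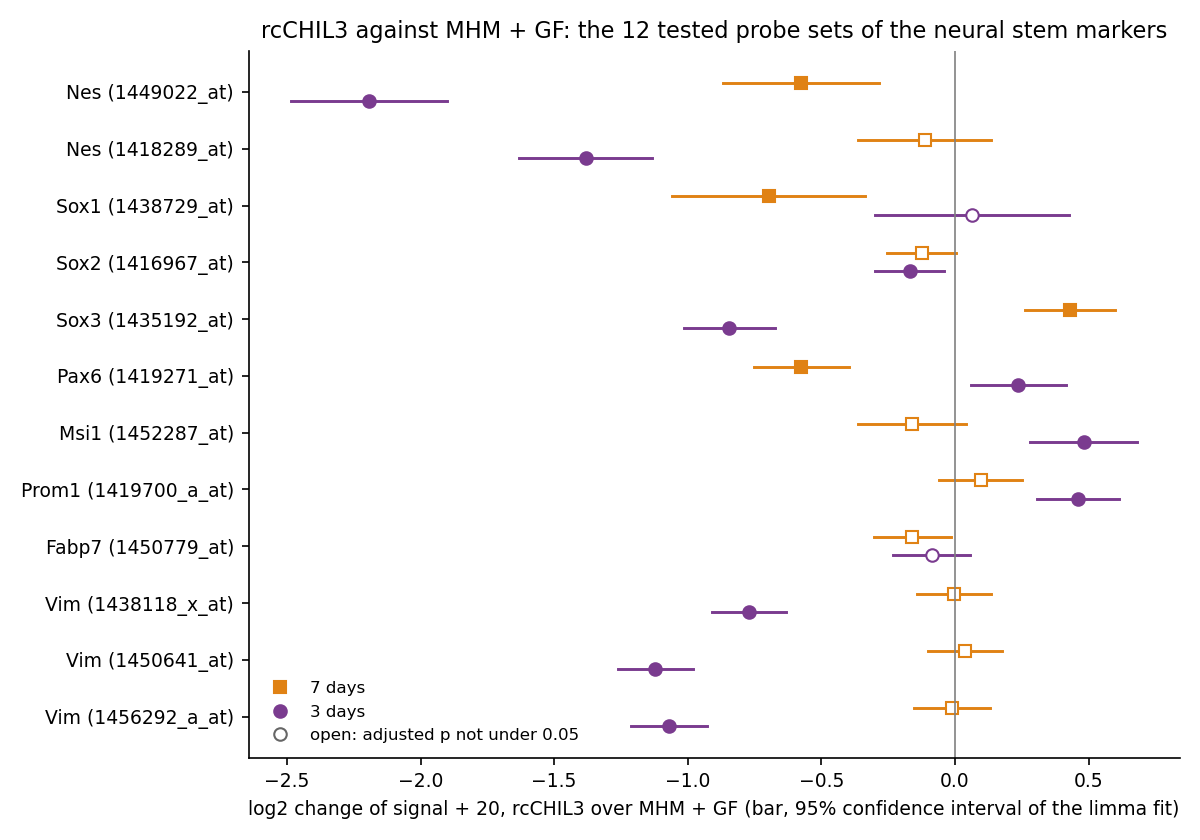
Log2 change of signal + 20 (x axis), rcCHIL3 over MHM + GF, at 7 days (squares) and 3 days (circles) for the 12 tested probe sets of the marker genes, with 95% confidence intervals of the limma fit. Open symbols did not pass the threshold of 0.05. At 3 days both Nes and all 3 Vim probe sets lay between -2.19 and -0.77, and at 7 days the Vim intervals included 0.

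Of 15 genes of intermediate filament proteins, 5 were tested, and they went both ways. Gfap, the filament of astrocytes, had signals of 1538 and 1555 in rcCHIL3 and 1101 and 1189 in MHM + GF at 7 days. At 3 days it had 842 and 978 in rcCHIL3, against 57.6 and 46.3 in MHM + GF. The log2 change of Gfap was 0.43 at 7 days (adjusted p = 0.00285) and 3.69 at 3 days (adjusted p = 4e-10), so in MHM + GF at 3 days Nes and Vim were at their highest where Gfap was at its lowest. Lmna, which encodes lamin A and C, rose on both days (0.35 and 0.26), while Lmnb1, which encodes lamin B1, fell by 1.04 at 7 days and by 1.38 at 3 days. The 5 include Nes and Vim, already counted among the markers, and Nes passed the filter through MHM + GF at 3 days alone. In all, 2 genes were higher and 2 lower at 7 days (21.8% and 22.6% over all genes), and 2 were higher and 3 lower at 3 days (30.3% and 22.1%), with the same counts without a filter. The other 10, among them the neurofilament genes, the keratins Krt8 and Krt18, Des, Prph and Synm, a filament partner of nestin, had no tested probe set.

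**Figure D3:**
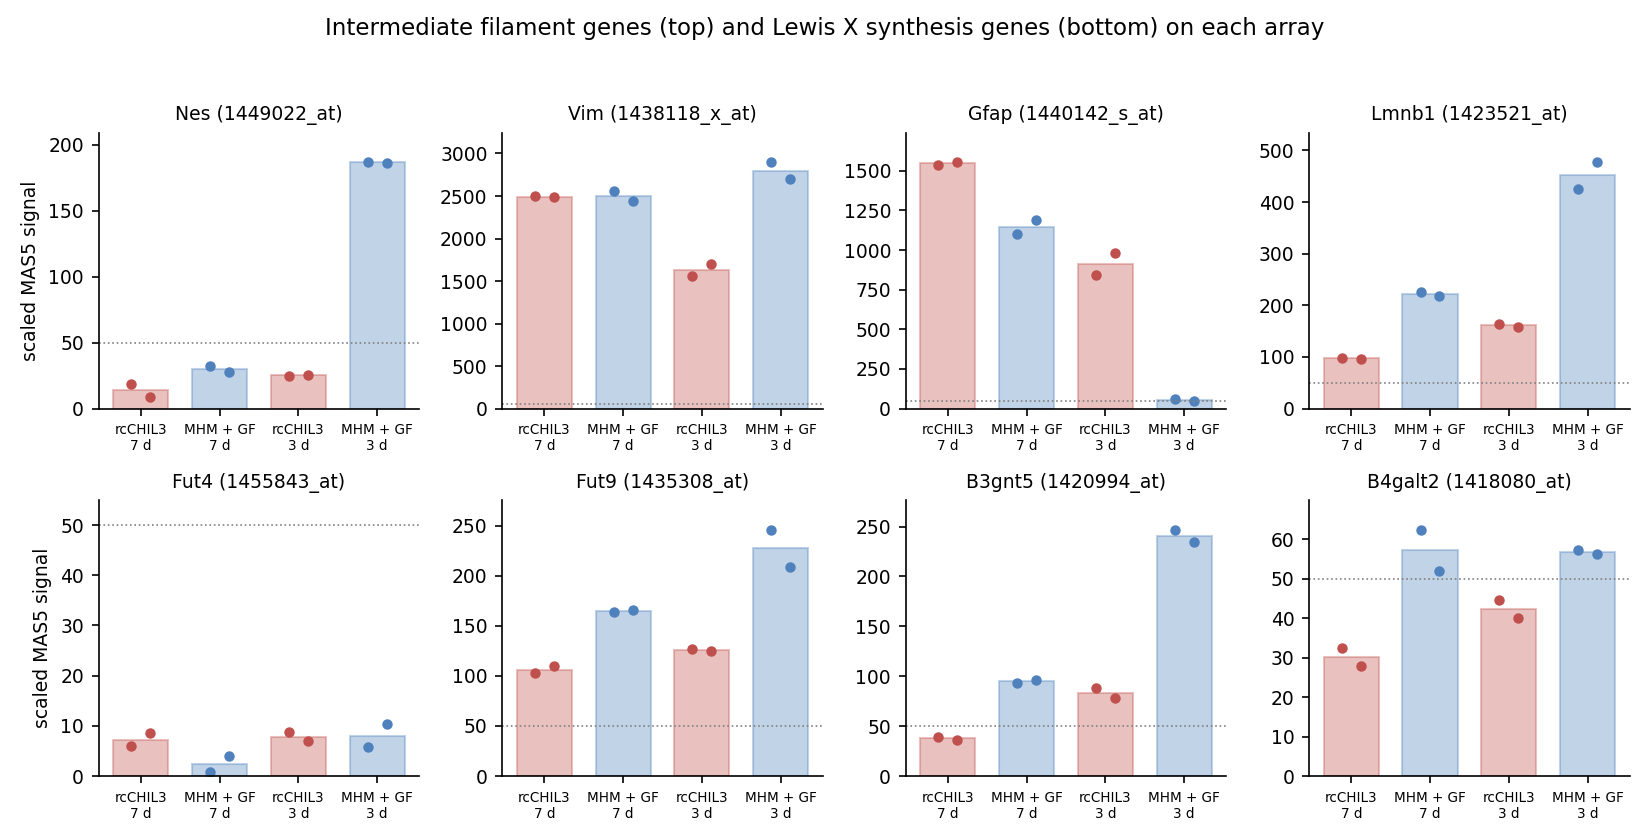
Scaled MAS5 signal (y axis, linear from 0, own scale for each gene) of Nes, Vim, Gfap and Lmnb1 (top) and of Fut4, Fut9, B3gnt5 and B4galt2 (bottom) in rcCHIL3 and MHM + GF at 7 and 3 days. Bars are the mean of 2 arrays, points are single arrays and the dotted line is a signal of 50. Gfap was lowest in MHM + GF at 3 days, with 57.6 and 46.3, where Nes was highest, and Fut9 was lower in rcCHIL3 on both days.

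The Sox genes of group B1 differed from each other. Sox2, the factor needed for self-renewal of neural precursors, kept a narrow range over the groups. Its signals were 1949 and 1817 in rcCHIL3 and 2096 and 2014 in MHM + GF at 7 days, and 1685 and 1770 in rcCHIL3 and 1936 and 1956 in MHM + GF at 3 days. On both days the rcCHIL3 arrays were the lower ones, by a log2 change of -0.13 at 7 days (95% confidence interval -0.26 to 0.0051, adjusted p = 0.108) and -0.17 at 3 days (SE 0.06, adjusted p = 0.0329). The call at 3 days was lost without any 1 of the 4 arrays of that day, with an adjusted p of 0.191 without rcCHIL3 3 days replicate 1, of 0.0573 without replicate 2, of 0.0944 without MHM + GF 3 days replicate 1 and of 0.122 without replicate 2. The 4 group means lay between 1728 and 2055, and Sox2 lies inside the overlapping noncoding gene Sox2ot, whose transcripts a probe set may also bind. The call was also lost after quantile normalization (-0.12, adjusted p = 0.141), without a filter (adjusted p = 0.0891) and without the trend of the variance (adjusted p = 0.0895).

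Sox1, the group B1 factor most restricted to the neural lineage, was lower in rcCHIL3 at 7 days. Its brightest probe set, 1438729_at, had signals of 266 and 256 in rcCHIL3, against 479 and 395 in MHM + GF, at 7 days. At 3 days it had 106 and 128 in rcCHIL3 and 142 and 85.9 in MHM + GF, which overlapped. The log2 change was -0.70 at 7 days (SE 0.16, adjusted p = 0.0055) and 0.06 at 3 days (95% confidence interval -0.30 to 0.42, adjusted p = 0.776). The value at 3 days rested on single arrays of MHM + GF, being 0.37 (adjusted p = 0.043) without MHM + GF 3 days replicate 1 and -0.24 (adjusted p = 0.159) without replicate 2, and it was -0.05 without rcCHIL3 3 days replicate 2. Sox1 was higher at 7 days than at 3 days in both media, by 1.04 in rcCHIL3 (adjusted p = 0.000546) and by 1.80 in MHM + GF (adjusted p = 3.5e-06).

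The difference between these increases, the rcCHIL3 effect on Sox1 at 7 days minus that at 3 days, was -0.76 (SE 0.23, adjusted p = 0.0221). It was no longer called without MHM + GF 3 days replicate 2 (-0.45, adjusted p = 0.0567), MHM + GF 7 days replicate 1 (-0.63, adjusted p = 0.071), rcCHIL3 3 days replicate 2 (-0.65, adjusted p = 0.0905) or rcCHIL3 7 days replicate 2 (-0.73, adjusted p = 0.0619), nor without a filter (adjusted p = 0.088). The second Sox1 probe set, 1422205_at, was at most 3.5 on any array and gives no comparison.

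Sox3 went one way at 3 days and the other at 7 days. Its brightest probe set, 1435192_at, had signals of 207 and 201 in rcCHIL3, against 144 and 149 in MHM + GF, at 7 days. By contrast, at 3 days the signals were 153 and 149 in rcCHIL3, against 302 and 272 in MHM + GF. Neither pair of groups overlapped, and the log2 change was 0.43 at 7 days (SE 0.08, adjusted p = 0.00101) and -0.84 at 3 days (SE 0.08, adjusted p = 3.66e-06). Sox3 was higher at 7 than at 3 days in rcCHIL3 (0.39, adjusted p = 0.00226) and lower in MHM + GF (-0.88, adjusted p = 2.41e-06), and the rcCHIL3 effect differed between the days by 1.27 (SE 0.11, adjusted p = 4.94e-06). Sox3 and Pax6 were the markers called in opposite directions on the 2 days. The dimmer probe set 1450485_at, under the filter on all arrays, had a log2 change of -0.33 at 3 days in the fit without a filter (adjusted p = 0.159). In that fit its change at 7 days was 0.01 (adjusted p = 0.981) and its difference between the days 0.34 (adjusted p = 0.34). The opposite directions of Sox3 thus rest on 1435192_at.

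The nestin enhancer is bound by Sox factors together with POU factors of class III. Of 7 genes for such POU factors and for Sox factors of group C, 6 were tested. At 7 days 5 were lower in rcCHIL3 and none was called higher, with 1 not called, where over all genes 22.6% were lower and 21.8% higher. At 3 days 1 was higher and 3 were lower, where 30.3% of all genes were higher and 22.1% lower. Without a filter 3 were lower at 7 days, with Pou3f4 and Sox12 no longer called, and 2 were lower at 3 days, with Sox4 and Pou3f2 no longer called. Sox11, a factor of immature neurons and their precursors, had signals of 317 and 286 in rcCHIL3, against 802 and 730 in MHM + GF, at 7 days (-1.29, adjusted p = 2.11e-07), and of 524 and 551 in rcCHIL3 and 593 and 569 in MHM + GF at 3 days (-0.11, adjusted p = 0.24). Pou3f3 was lower in rcCHIL3 on both days (-0.65 and -0.51), as were Pou3f4 (-0.34 and -0.57) and Sox4 (-0.45 and -0.16). Pou3f2 was higher at 3 days (0.32, adjusted p = 0.0382). The median log2 change of the 6 genes was -0.40 at 7 days and -0.14 at 3 days.

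Pax6 was lower in rcCHIL3 at 7 days and slightly higher at 3 days. Its brightest probe set, 1419271_at, had signals of 214 and 204 in rcCHIL3, against 313 and 329 in MHM + GF, at 7 days. The signals at 3 days were 174 and 166 in rcCHIL3, against 132 and 150 in MHM + GF. The log2 change was -0.58 at 7 days (SE 0.08, adjusted p = 0.000193) and 0.24 at 3 days (SE 0.08, adjusted p = 0.03), and the rcCHIL3 effect differed between the days by -0.81 (SE 0.11, adjusted p = 0.000204). The call at 3 days was lost without MHM + GF 3 days replicate 1 (0.16, adjusted p = 0.199), rcCHIL3 3 days replicate 1 (0.20, adjusted p = 0.149) or rcCHIL3 3 days replicate 2 (0.27, adjusted p = 0.0644), and after quantile normalization (0.20, adjusted p = 0.0562) and centring on the median (0.21, adjusted p = 0.0533), on the signals as deposited (0.18, adjusted p = 0.368) and without a filter (adjusted p = 0.0585). At 7 days Pax6 was higher than at 3 days in MHM + GF (1.08, adjusted p = 6.66e-07). In rcCHIL3 the change over time was 0.27 (adjusted p = 0.0221), and it lost its call without any 1 of the 4 rcCHIL3 arrays (0.24 to 0.30, adjusted p = 0.0539 to 0.127).

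The other 4 Pax6 probe sets stayed under the filter. The brightest of them, 1452526_a_at, had signals of 33.2 and 34.4 in rcCHIL3 and 52.7 and 38.6 in MHM + GF at 7 days, and of 30.7 and 31.7 in rcCHIL3 and 27.6 and 28.5 in MHM + GF at 3 days, in the same order of groups as 1419271_at. In the fit without a filter 1452526_a_at was called on neither day (-0.28 at 7 days, adjusted p = 0.171, and 0.09 at 3 days, adjusted p = 0.704). The remaining 3 reached at most 13.2. Of 7 genes of the Pax family, Pax6 was the one with a tested probe set.

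Msi1, which encodes the RNA-binding protein Musashi 1 of neural precursors, was higher in rcCHIL3 at 3 days. Its brightest probe set, 1452287_at, had signals of 281 and 260 in rcCHIL3 and 334 and 277 in MHM + GF at 7 days, which overlapped. On the arrays of 3 days it had 291 and 318 in rcCHIL3, against 218 and 207 in MHM + GF. The log2 change was -0.16 at 7 days (95% confidence interval -0.36 to 0.04, adjusted p = 0.18) and 0.48 at 3 days (SE 0.09, adjusted p = 0.00109). Without MHM + GF 7 days replicate 2 the difference at 7 days was called (adjusted p = 0.0372). The effect was lower at 7 days than at 3 days by 0.64 (SE 0.13, adjusted p = 0.00231; on the signals as deposited -0.50, adjusted p = 0.0508), and over time Msi1 was higher at 7 days in MHM + GF (0.48, adjusted p = 0.000931) and not called in rcCHIL3 (-0.16, adjusted p = 0.205). Of its dimmer probe sets, 1444306_at was highest in rcCHIL3 at 3 days as well (29.4 and 30.6, against 20.1 and 16.9 in MHM + GF), short of a call without a filter (0.38, adjusted p = 0.0922), and 1421409_at was at most 5.13.

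Prom1, which encodes the membrane protein prominin 1 (CD133), rose with time in both media and differed between them at 3 days. Its probe set 1419700_a_at had signals of 636 and 704 in rcCHIL3 and 619 and 630 in MHM + GF at 7 days, and of 374 and 364 in rcCHIL3, against 273 and 253 in MHM + GF, at 3 days. The rcCHIL3 arrays were both above the MHM + GF arrays on both days, with a log2 change of 0.10 at 7 days (95% confidence interval -0.06 to 0.25, adjusted p = 0.289) and of 0.46 at 3 days (SE 0.07, adjusted p = 0.000227). Between 3 and 7 days it rose by 0.82 in rcCHIL3 (adjusted p = 6.15e-06) and by 1.19 in MHM + GF (adjusted p = 1.01e-07). The rcCHIL3 effect was smaller at 7 days by 0.36 (-0.36, SE 0.10, adjusted p = 0.013), a difference that lost its call without rcCHIL3 7 days replicate 1 (-0.29, adjusted p = 0.0551) and on the signals as deposited (-0.21, adjusted p = 0.433).

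Fut4, the fucosyltransferase gene whose symbol stands for CD15, stayed under the filter with both probe sets. The probe set 1455843_at had 5.97 and 8.55 in rcCHIL3 and 0.818 and 4.07 in MHM + GF at 7 days, and 8.78 and 6.96 in rcCHIL3 and 5.84 and 10.3 in MHM + GF at 3 days. The other, 1450834_at, was at most 2.89. All 16 values were far under the filter of 50, and in the fit without a filter neither probe set was called on either day (adjusted p = 0.139 to 0.984). The arrays give no measure of Fut4 above the filter to set beside the CD15 readout, and say nothing of the epitope itself, which is a sugar structure that several enzymes make.

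Fut9, which encodes the main Lewis X fucosyltransferase of mouse brain, was measured and was lower in rcCHIL3 on both days. Its signals were 103 and 109 in rcCHIL3, against 164 and 166 in MHM + GF, at 7 days, and 127 and 125 in rcCHIL3, against 246 and 208 in MHM + GF, at 3 days, with no overlap. The log2 change was -0.55 at 7 days (adjusted p = 0.000499) and -0.76 at 3 days (adjusted p = 2.95e-05), and the difference between the days was not called (0.20, adjusted p = 0.223). The third fucosyltransferase of the list, Fut10, was under the filter with at most 24.7. B3gnt5, the enzyme that starts the lactoseries sugar chain of glycolipids, was lower by 1.00 at 7 days and by 1.33 at 3 days, and the galactosyltransferase gene B4galt2 fell by 0.62 and by 0.30. B4galt3 was not called on either day (-0.15 and -0.22). In all, 4 of 12 Lewis X synthesis genes were tested, 3 were lower and none was called higher on either day, where 22.6% of all genes were lower at 7 days and 22.1% at 3 days. Of these, B4galt2 was under a signal of 50 on all rcCHIL3 arrays, and its call at 3 days was lost without a filter (adjusted p = 0.0832).

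Fabp7, which encodes the brain lipid-binding protein of radial glia, was bright in all groups and was not called between the media. Its signals were 2168 and 2315 in rcCHIL3 and 2366 and 2655 in MHM + GF at 7 days, and 2780 and 2830 in rcCHIL3 and 3013 and 2951 in MHM + GF at 3 days. The rcCHIL3 arrays were the lower ones on both days, by a log2 change of -0.16 at 7 days (SE 0.07, adjusted p = 0.0671) and -0.09 at 3 days (95% confidence interval -0.23 to 0.06, adjusted p = 0.29). Without MHM + GF 7 days replicate 1 the difference at 7 days was called (-0.24, adjusted p = 0.0234). Fabp7 was lower at 7 than at 3 days in both media, by a log2 change of -0.32 in rcCHIL3 (adjusted p = 0.0029) and -0.25 in MHM + GF (adjusted p = 0.00719), and the call in MHM + GF was lost without MHM + GF 7 days replicate 1 (-0.17, adjusted p = 0.0793) and that in rcCHIL3 on the signals as deposited (-0.22, adjusted p = 0.0639). The deposited signals reached 9536, on MHM + GF 3 days replicate 1, whose array maximum was 11696.8. Of the other lipid-binding protein genes, Fabp5 was tested (-0.03 at 7 days and -0.15 at 3 days, the last with an adjusted p of 0.0412, and of 0.114 without a filter), and Fabp3 and Fabp4 were not.

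Over time, of the 9 genes 5 rose and 2 fell in rcCHIL3 between 3 and 7 days, where 20.4% of all genes rose and 18.1% fell, and 4 rose and 4 fell in MHM + GF, where 34.0% rose and 24.2% fell. The genes that rose in rcCHIL3 were Sox1, Sox3, Pax6, Prom1 and Vim, and those that rose in MHM + GF were Sox1, Pax6, Msi1 and Prom1. Nes and Fabp7 fell in both media, and Sox3 and Vim fell in MHM + GF. The calls of Nes in rcCHIL3 and of Vim in MHM + GF were lost under several alternatives, as given above. In rcCHIL3 the second Nes probe set, 1418289_at, was not called over time (-0.11, limma adjusted p = 0.467). The group with the highest mean was MHM + GF at 7 days for Sox1, Sox2, Pax6 and Msi1 (4 genes), rcCHIL3 at 7 days for Prom1, and MHM + GF at 3 days for Nes, Sox3, Vim and Fabp7 (4 genes). For Msi1 the mean of 306 in MHM + GF at 7 days (arrays 334 and 277) was close to that of 304 in rcCHIL3 at 3 days (arrays 291 and 318), whose arrays lie between them, so this order is not settled. The dimmer probe set 1444306_at was highest in rcCHIL3 at 3 days. By these means none of the 9 was highest in rcCHIL3 at 3 days, a group that held the highest mean for 20.2% of all genes, against 27.9% for MHM + GF at 7 days, 26.1% for rcCHIL3 at 7 days and 25.8% for MHM + GF at 3 days. The change over time in rcCHIL3 and in MHM + GF and the changes between media share arrays, so these counts are not independent of those above.

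Other genes of neural stem and progenitor cells were more often lower than higher in rcCHIL3. Of 18 tested genes in a list of 20, 2 were higher and 13 lower at 7 days, and 2 were higher and 10 lower at 3 days, where over all genes 21.8% were higher and 22.6% lower at 7 days and 30.3% and 22.1% at 3 days. Gsx2 and Hes1 of this list were under the filter on all rcCHIL3 arrays and so passed it through MHM + GF alone. In the fit without a filter, 2 of the genes were higher and 12 lower at 7 days, and 2 were higher and 9 lower at 3 days. The median log2 change was -0.48 at 7 days and -0.27 at 3 days. Egfr, the receptor of EGF, had signals of 380 and 375 in rcCHIL3, against 757 and 844 in MHM + GF, at 7 days (-1.04, adjusted p = 7.81e-07), and of 215 and 218 in rcCHIL3, against 846 and 793 in MHM + GF, at 3 days (-1.83, adjusted p = 3.61e-09). The Notch ligand gene Dll1 fell by 0.71 at 7 days and by 1.42 at 3 days, and Hes1, a repressor downstream of Notch, by 0.72 and by 1.11. Hes5, a related Notch target, had signals of 106 and 98.9 in rcCHIL3, against 458 and 333 in MHM + GF, at 7 days, while at 3 days it had 922 and 1025 in rcCHIL3 and 863 and 875 in MHM + GF (-1.75 at 7 days, and 0.16 at 3 days with an adjusted p of 0.279). The genes higher in rcCHIL3 were Id1, an inhibitor of basic helix-loop-helix factors, on both days (0.94 and 0.78), Cspg4 at 7 days (0.42) and Sox9 at 3 days (0.58), while Cspg4 was lower at 3 days (-0.83, adjusted p = 1.27e-05).

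Genes of maturing cells differed between the media as well, and their part in the results above was not tested. The counts that follow stand beside 21.8% higher and 22.6% lower at 7 days and 30.3% higher and 22.1% lower at 3 days over all genes. Of 10 astrocyte genes 9 were tested, 5 were higher and 1 lower in rcCHIL3 at 7 days, and 6 were higher and 2 lower at 3 days. The summed signal of the list was 10080 to 10370 in rcCHIL3 and 9325 to 9516 in MHM + GF at 7 days, and 8377 to 8579 in rcCHIL3 and 5647 to 5804 in MHM + GF at 3 days. Of 10 neuroblast and neuron genes 8 were tested, and none was higher and 6 were lower in rcCHIL3 at 7 days, whereas 6 were higher and 2 lower at 3 days. These counts were the same without a filter. Snap25 and Dlx5 of this list were under a signal of 50 on all rcCHIL3 arrays and so passed the filter through MHM + GF alone. Dlx1, a homeobox gene of forebrain interneuron precursors, had signals of 36.9 and 42.9 in rcCHIL3, against 541 and 546 in MHM + GF, at 7 days, and of 211 and 197 in rcCHIL3, against 18.1 and 13.5 in MHM + GF, at 3 days. The summed signal of that list was 1303 to 1387 in rcCHIL3 and 2893 to 2937 in MHM + GF at 7 days, and 1889 to 1948 in rcCHIL3 and 1439 to 1476 in MHM + GF at 3 days.

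The same shares over all genes, 21.8% higher and 22.6% lower at 7 days and 30.3% and 22.1% at 3 days, stand beside the counts of the remaining lists. Of 8 myelinating oligodendrocyte genes 6 were tested, 1 of them (Opalin) through the rcCHIL3 arrays alone. Of the 6, 3 were higher in rcCHIL3 at 7 days and 6 at 3 days, with none lower. Without a filter 3 of them were higher at 7 days and 5 at 3 days. Their sums were 6295 to 6603 in rcCHIL3 and 5316 to 5378 in MHM + GF at 7 days and 5858 to 5964 in rcCHIL3 and 3296 to 3324 in MHM + GF at 3 days. Of 8 oligodendrocyte progenitor genes, all tested, 2 were higher and 2 lower at 7 days and 4 higher and 3 lower at 3 days. Without a filter 1 of them was higher and 2 lower at 7 days, and 4 were higher and 2 lower at 3 days. Their sums were 1508 to 1524 in rcCHIL3 and 1754 to 1814 in MHM + GF at 7 days and 3854 to 3999 in rcCHIL3 and 3466 to 3566 in MHM + GF at 3 days. Of 6 ependymal genes 4 were tested, 1 of them (Rarres2) through the rcCHIL3 arrays alone. Of the 4, 3 were higher and none lower at 7 days, while 3 were higher and 1 lower at 3 days, of which 1 higher and 1 lower kept the call without a filter. Their sums were 844 to 1027 in rcCHIL3 and 465 to 779 in MHM + GF at 7 days, and 298 to 622 in rcCHIL3 and 121 to 252 in MHM + GF at 3 days. Ttr, a gene of the choroid plexus, differed widely within a group, with 146 and 477 in rcCHIL3 and 30.3 and 171 in MHM + GF at 3 days. No microglia or macrophage gene and no endothelial gene of the lists was tested, and their highest single signals were 40.6 and 30.9. No gene of any list had a signal of 0. Against the label of NSC cultures, the brightest probe sets of Sox1, Sox2, Sox3, Pax6, Msi1, Prom1, Fabp7 and Vim were over a signal of 50 on all 8 arrays. Nes was over it in MHM + GF at 3 days alone, and Fut4 on no array. Mbp (1467 to 2801 over the 8 arrays), Gfap (46.3 to 1555) and Dcx (64.8 to 236), markers of oligodendrocytes, astrocytes and neuroblasts, were measured as well.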

How the data were processed

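RNA of 8 neurosphere cultures was hybridised to Affymetrix GeneChip arrays of the mouse genome, 2 per group. Per the labels and the methods, the authors made the deposited intensity values, linear MAS5 signals per probe set, with Affymetrix Expression Console 1.1 (the methods name another Affymetrix program), and replicates were not pooled. A note gives an average of 100 per array, but the deposited averages differ and none is 100, so each array was divided by its average over all 45101 probe sets and multiplied by 100. MAS5 summarises each array on its own and corrects for mismatch probes, which leaves dim signals imprecise. The deposited table holds no columns of the authors' own comparisons.

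Probe sets were named through the platform annotation, in which 34958 had 1 symbol, 932 several and 9211 none, and 64 array controls were left out. Probe sets with a signal of 50 on at least 2 arrays (15679) entered 1 limma model (limma 3.58.1, R 4.3.3) of log2(signal + 20) with 4 group means, 4 residual degrees of freedom and an eBayes trend. Tests were two-sided with Benjamini-Hochberg adjustment, and 5 contrasts were made. The brightest probe set stood for a gene, and shares over all genes used the brightest tested probe set of each. Probe sets with the suffixes _s_at, _a_at or _x_at may bind several transcripts. The methods' two-tailed test, other scalings, filters and offsets, the replicate number as a block and leaving out each array were tried as alternatives. The fit was tested on simulated data.

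All 10 genes are named, and from each other list up to 4 genes with the largest change between the media; genes of a count of 5 or fewer, and Lmna, Mbp, Dcx and Fut10, were named after their values were seen. The members and lists were chosen with earlier results of these data known. Some list genes are not reported here. Promoter windows came from RefSeq. Figures were drawn with matplotlib 3.10.9 (Python 3.11.15).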

Additional observations from a re-analysis of the deposited data

Results flagged for a closer look

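For 7 of the 9 tested marker genes the rcCHIL3 effect, rcCHIL3 over MHM + GF on the log2 scale, differed between the days in the limma test of that difference, and these are set out here as effect at 7 days minus effect at 3 days. The effect was higher at 7 days for Nes by 1.615 (SE 0.188, adjusted p = 4.89e-05), for Sox3 by 1.274 (SE 0.109, adjusted p = 4.94e-06) and for Vim by 0.7675 (SE 0.0901, adjusted p = 5.15e-05). Nes passed the filter only through MHM + GF at 3 days and was under a signal of 50 in the other groups. Its difference therefore restates the high level of that group and is no separate support. It was lower at 7 days for Pax6 (-0.8113, SE 0.114, adjusted p = 0.000204), Sox1 (-0.76, SE 0.233, adjusted p = 0.0221), Msi1 (-0.6404, SE 0.13, adjusted p = 0.00231) and Prom1 (-0.3633, SE 0.0998, adjusted p = 0.013). For Sox3 and Pax6 the 2 effects were called in opposite directions, although that of Pax6 at 3 days was small (0.24) and lost its call after quantile normalization and without a filter. Of all genes, 19.2% were called with a higher and 24.1% with a lower effect at 7 days, so a difference between the days was common on these arrays. With 2 arrays a group no single array could be tested as standing apart from its group.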

How the results depend on the processing

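Of 45 results on the marker genes, 33 were called, and 23 of these kept their call and direction under all alternatives other than the methods' two-tailed test, while 10 lost the call under at least 1, and none of the 33 changed sign. Under the methods' test, which uses the arrays of the groups compared alone, the number of genes called after adjustment was 0 of 9 between the media at 7 days (3 unadjusted; limma 4), 2 at 3 days (7 unadjusted; limma 7), 0 for time in rcCHIL3 (6 unadjusted; limma 7) and 4 for time in MHM + GF (5 unadjusted; limma 8). Over all probe sets that test called 21 higher and 16 lower at 7 days, 1297 and 1137 at 3 days, none for time in rcCHIL3 (2504 and 2353 unadjusted) and 1298 and 1078 for time in MHM + GF after adjustment. For the difference between the days, that test and a fit of only the groups compared were not run. Without 1 array the counts were 4 to 5 at 7 days, 5 to 7 at 3 days, 5 to 7 for time in rcCHIL3, 6 to 8 for time in MHM + GF and 6 to 7 for the difference.

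Changes of direction were all in results that were not called. The Vim change at 7 days was 0.0071 with the mean of its probe sets, 0.11 after quantile normalization and 0.094 on the signals as deposited, and it lay between -0.038 and 0.0305 without single arrays. Fabp7 at 3 days was 0.0075 after quantile normalization, and its difference between the days was 0.10 on the signals as deposited and between -0.16 and 0.0093 without single arrays. Without single arrays the Sox1 change at 3 days lay between -0.24 and 0.37, and the Sox2 difference between -0.0052 and 0.094. The Nes change at 7 days was -1.12 with signals raised to at least 10 and no offset, -0.33 with an offset of 50 and -0.35 with the mean of its tested probe sets. On the signals as deposited the median change of all probe sets shifted by 0.10 for time in rcCHIL3 and by 0.15 for the difference, and the share of calls that were higher was 68.9% and 67.2%, against 50.2% and 45.3% on the rescaled signals.

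The replicate number as a block gave 5 called genes at 7 days (Fabp7 in addition), 7 at 3 days, 7 and 8 for time in rcCHIL3 and MHM + GF and 7 for the difference. Same-numbered arrays deviated little together (correlation -0.0106 to 0.102 over 6 pairs of groups). With so few arrays this cannot tell whether the same number marks the same experiment, and the labels do not say. Signals under 50, as for Fut4 and the dimmer probe sets, limit what the arrays show.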
